A study of Mus musculus with 3 samples.

Results

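A group of 10 neutrophil granule genes was followed through 7 clusters of cells, 5 that are switched on early in maturation (Mpo, Elane, Prtn3, Ctsg and Ms4a3) and 5 that come later (Camp, Ngp, Ltf, S100a8 and S100a9). They were taken by name from a table of 27,985 genes, and all 10 were found. The cells were adult mouse cardiac endothelial cells from female mice, 12 to 16 weeks old per the study's methods, sorted as positive for CD31 and VE-Cad while negative for CD41, CD45, PDGFRA and PDGFRB. They were sequenced fresh (0 h) or after 24, 48, 72 and 96 h in co-aggregates with Mesp1(der) PSCs, which are PDGFRA+ stromal cells (Mesp1-DsRed+) from the aorta–gonad–mesonephros of E11.5 embryos, in a medium that held serum, IL-3, SCF and Flt3L. After culture, cells with CD31 and VE-Cad but without PDGFRA were sorted again, and no gate on CD41 or CD45 is stated for that step. All time points were mixed within each of 3 pools, and neither the time point nor the pool of a cell is given. The 9,562 cells therefore count as 1 sample, no test was possible, and each value is given with the interval that counting alone allows (95%) and with the range over 3 libraries of unknown pool. The 3 pools are replicates per the study's methods, but they could not be used as such here.

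Neutrophils pack their proteins into granules in the order in which the genes are transcribed. Promyelocytes make the azurophil (primary) granules with myeloperoxidase and serine proteases. Myelocytes and metamyelocytes then shut these genes down and fill specific (secondary) granules with lactoferrin, the cathelicidin precursor and neutrophilic granule protein, under control of C/EBPε, and gelatinase granules follow last. S100a8 and S100a9 code for the calprotectin pair, which is stored in the cytosol and not in granules, and which marks the same later stages as the specific granule genes. Progenitors shared by granulocytes and monocytes also transcribe Mpo, Elane and Prtn3, so that the early set alone does not name a neutrophil.

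PU.1, a factor of the ETS family, is known to act on promoters of early granule genes, and C/EBP factors on those of late ones. Promoter windows from RefSeq (GRCm38.p6, 250 bases before the start) were found for all 10 genes. The letters GAGGAAGT, a PU.1-type motif searched on both strands, occurred in 2.44% of 32,851 such windows, and in the windows of Mpo, Elane and Prtn3 among the 5 early genes and of S100a8 among the 5 late genes. The shorter ETS core GGAAGT, which lies within GAGGAAGT, occurred in 19.7% of all windows, in 5 of 5 early and in 2 of 5 late ones. TTNNGNAA, a C/EBP-type motif, was found in 36.8% of all windows, in 4 of 5 late ones (Ngp, Ltf, S100a8 and S100a9) and in 1 of 5 early ones (Ms4a3). The RUNX-type letters TGTGGT occurred in 14.0% of all windows and in those of Ctsg and S100a9. The letters were chosen after the sequences had been read, and a match describes the sequence and is no proof of binding. The 3 early windows with the longer motif and the late windows of Ngp and Ltf are shown on the strand of the gene, less any bases that lie in an annotated exon, with the early motif or the late motif in capitals. Matches in exons are not shown. They lie at chr11:87793534-87793580 (Mpo, plus strand), chr10:79886062-79886246 (Elane, plus strand), chr10:79879417-79879613 (Prtn3, plus strand), chr9:110419558-110419746 (Ngp, plus strand) and chr9:111019042-111019270 (Ltf, plus strand).
Mpo: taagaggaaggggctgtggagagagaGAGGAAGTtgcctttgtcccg
Elane: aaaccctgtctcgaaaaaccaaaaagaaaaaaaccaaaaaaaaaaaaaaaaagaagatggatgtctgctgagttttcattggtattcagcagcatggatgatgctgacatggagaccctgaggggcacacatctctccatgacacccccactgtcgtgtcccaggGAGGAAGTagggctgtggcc
Prtn3: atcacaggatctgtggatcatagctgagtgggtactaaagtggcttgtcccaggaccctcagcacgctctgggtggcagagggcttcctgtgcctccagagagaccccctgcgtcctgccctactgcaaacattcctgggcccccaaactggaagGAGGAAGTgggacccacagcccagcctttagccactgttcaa
Ngp: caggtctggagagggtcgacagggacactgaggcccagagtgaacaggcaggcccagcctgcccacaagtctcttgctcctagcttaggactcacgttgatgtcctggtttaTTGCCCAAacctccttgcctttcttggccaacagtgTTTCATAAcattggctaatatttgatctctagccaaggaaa
Ltf: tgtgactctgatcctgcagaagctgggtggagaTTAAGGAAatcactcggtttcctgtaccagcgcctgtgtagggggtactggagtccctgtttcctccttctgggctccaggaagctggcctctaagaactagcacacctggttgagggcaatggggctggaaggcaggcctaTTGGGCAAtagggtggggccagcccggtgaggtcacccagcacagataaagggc

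The count table holds 252,339,042 unique molecular identifiers (UMIs), each of which stands for 1 captured messenger RNA. Because reads start at the 3′ end, a UMI count does not grow with the length of the gene, and levels are given as UMIs of the gene per 10,000 UMIs of the cells in question, not divided by length. The median depth was 13,440.5 to 38,312 UMIs per cell in the 3 libraries, 36,065.5 in cluster 5 and 7,875 to 32,186 in the others. Cluster 5 holds 1,572 cells (601, 645 and 326 in the libraries with suffix 1, 2 and 3). Because clustering used these very counts, differences between clusters describe the members and are no independent evidence. Library suffix 2 had the most granule RNA outside cluster 5 (0.142 UMIs per 10,000 for the early set, against 0.0395 and 0.0345), and 13 barcode sequences occurred in more than 1 library.

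In cluster 5 the 5 early genes together made up 8.78 UMIs per 10,000 (8.70 to 8.85, 6.59 to 9.50 in the libraries) and the 5 late genes 8.03 (7.96 to 8.10, 2.67 to 12.4). In the 6 other clusters together the sums were 0.0689 and 0.0590. The 2 sets thus had nearly the same sum in cluster 5 with the libraries pooled, but not within any library. In library suffix 1 the late sum was above the early one (12.4 against 9.50). It was below the early one in library suffix 2 (2.67 against 6.59) and in library suffix 3. At 5,000 UMIs per cell an early transcript was found in 47.5% of the cells of cluster 5 (45.0 to 50.0%). A late one was found in 3.13% (2.32 to 4.11%). In clusters 0 to 4 these shares were 3.45% (3.05 to 3.88%) and 1.66% (1.38 to 1.97%). For the late set these clusters are no clean reference for free RNA. Of their 1,074 late UMIs, 477 were S100a8 UMIs in 8 cells of cluster 1, with 25 to 148 each. The late share of cluster 1 was 3.49% (2.29 to 5.07%). Without library suffix 1 the late sum was 4.94, more than 1.5 times lower, and the early sum was 8.27.

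**Figure D1:**
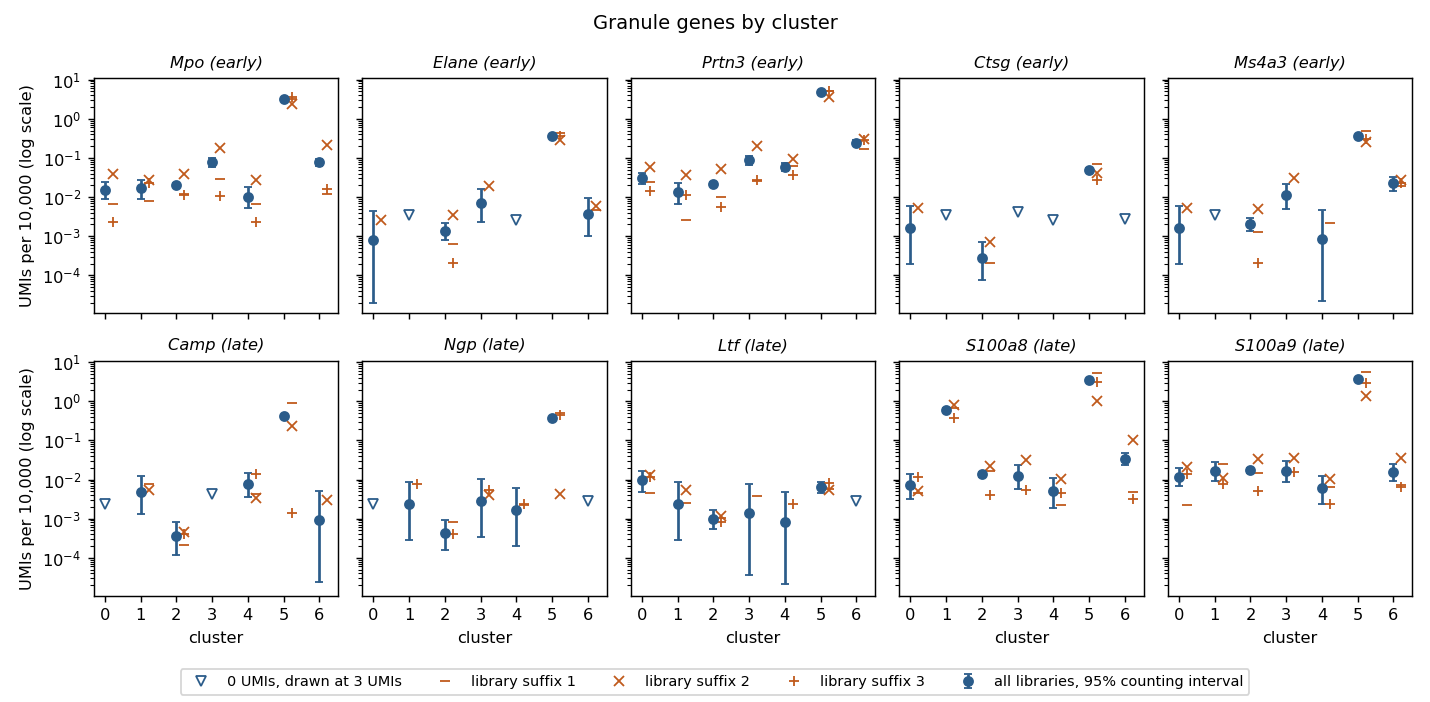
Level of each member in the 7 clusters, in UMIs per 10,000 UMIs of the cluster on a log axis. Filled points are all libraries with the 95% counting interval, open triangles stand for 0 UMIs and are drawn at 3 UMIs, and orange marks show the 3 libraries (libraries with 0 UMIs are not drawn). All genes but Ltf peak in cluster 5 (Prtn3 at 4.83, S100a9 at 3.74), and S100a8 has a second level of 0.602 in cluster 1.

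Prtn3 (ENSMUSG00000057729, chromosome 10, 79,874,476–79,883,174), which codes for proteinase 3, was the most abundant member. Its level was 0.0310, 0.0131, 0.0216, 0.0883 and 0.0600 UMIs per 10,000 in clusters 0 to 4, 4.83 (4.78 to 4.89) in cluster 5 and 0.248 (0.219 to 0.279) in cluster 6. Within cluster 5 the libraries stood at 5.24, 3.64 and 5.16. Cluster 6 was second, with 0.167 to 0.310 in its libraries, and lay above cluster 3 beyond the counting intervals. With every cell drawn down to 5,000 UMIs, Prtn3 was detected in 40.3% of the cells of cluster 5 (37.9 to 42.8%), 8.41% of cluster 6 (5.57 to 12.1%) and 2.29% of clusters 0 to 4 together, which serve as the reference for free RNA.

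Mpo (ENSMUSG00000009350, chromosome 11, 87,793,581–87,804,413) codes for myeloperoxidase, the haem enzyme of the azurophil granule. It stood at 0.0151, 0.0166, 0.0199, 0.0785 and 0.0101 UMIs per 10,000 in clusters 0 to 4, at 3.16 (3.11 to 3.20) in cluster 5 and at 0.0771 in cluster 6. The libraries had 3.26, 2.37 and 3.56 in cluster 5. Clusters 3 and 6 had like levels (intervals 0.0593 to 0.102 and 0.0614 to 0.0955), both carried by library suffix 2, which had 0.180 and 0.216 there against at most 0.0296 in the other libraries. At 5,000 UMIs per cell, Mpo was detected in 24.9% of the cells of cluster 5 (22.7 to 27.1%) and 1.25% of clusters 0 to 4.

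The other early genes were lower and found in fewer cells. Elane (ENSMUSG00000020125, chromosome 10, 79,886,247–79,888,215), the neutrophil elastase gene next to Prtn3, reached 0.369 UMIs per 10,000 in cluster 5 (0.286 to 0.430 in the libraries) and at most 0.00701 elsewhere. Ms4a3 (ENSMUSG00000024681, chromosome 19, 11,629,496–11,640,851), a membrane protein gene of granulocyte and monocyte progenitors, had 0.371 in cluster 5 and 0.0223 in cluster 6, with 0 to 0.0112 in the rest. Ctsg (ENSMUSG00000040314, chromosome 14, 56,099,881–56,102,574), which codes for cathepsin G, had 0.0485 in cluster 5 and no UMI in clusters 1, 3, 4 and 6, where 3 UMIs would be 0.00253 to 0.00420 per 10,000. All 3 libraries gave cluster 5 the highest level of each of these genes.

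S100a9 (ENSMUSG00000056071, chromosome 3, 90,692,632–90,695,721) and S100a8 (ENSMUSG00000056054, chromosome 3, 90,668,978–90,670,035) were the most abundant late genes. S100a9 stood at 3.74 UMIs per 10,000 in cluster 5 (3.69 to 3.79) and at 0.00591 to 0.0172 in the other 6 clusters. The libraries differed more than for the early genes, with 5.75, 1.39 and 2.96 in cluster 5, and without library suffix 1 the level was 2.33. S100a8 stood at 3.49 in cluster 5 (5.27, 1.04 and 3.05 in the libraries, 2.24 without library suffix 1), at 0.602 in cluster 1 and at 0.00507 to 0.0344 in the remaining clusters.

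S100a8 in cluster 1 came without its partner. Of the 506 S100a8 UMIs of cluster 1, 477 lay in 8 cells with 25 to 148 UMIs each, and all 8 had no S100a9 UMI. These cells had 16 to 444 UMIs of Lyz2, the myeloid lysozyme gene (median 252.5), 6 had a UMI of C1qb, a complement gene of macrophages, and none had a UMI of an early member. In cluster 5, 21 of the 25 cells with at least 5 S100a8 UMIs also had at least 5 of S100a9, and 4 had none.

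Camp (ENSMUSG00000038357, chromosome 9, 109,847,379–109,849,617), the cathelicidin precursor gene, stood at 0.433 UMIs per 10,000 in cluster 5 (0.417 to 0.450) and at most at 0.00760 elsewhere. Its libraries stood at 0.918, 0.230 and 0.00140 in cluster 5, and without library suffix 1 the level was 0.0935. Ngp (ENSMUSG00000032484, chromosome 9, 110,419,747–110,423,012), whose product belongs to the same cathelicidin-like family, had 0.365 in cluster 5, with 0.510, 0.00415 and 0.440 in the libraries, and at most 0.00280 elsewhere. Camp was thus nearly lacking in library suffix 3 and Ngp in library suffix 2. Ltf (ENSMUSG00000032496, chromosome 9, 111,019,271–111,042,767), the lactoferrin gene, had only 39 UMIs in cluster 5, or 0.00639 per 10,000 (0.00454 to 0.00873), and this did not stand above the 0.00953 of cluster 0 (0.00493 to 0.0167). As log2 ratios of cluster 5 to the 6 other clusters together, Ltf had 2.03 (1.30 to 2.76) and the other 9 members 6.45 (S100a8) to 9.19 (Ngp).

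The late transcripts sat in very few cells. More than 0.5 counts per 10,000 of Prtn3 were found in 53.4% of the cells of cluster 5 (50.9 to 55.9%) and of Mpo in 31.5% (29.2 to 33.8%), against 2.61% for S100a9 (1.88 to 3.52%) and 0.763% for Camp. In clusters 0 to 4 the share was 2.93% for Prtn3, 1.68% for Mpo and 1.11% for S100a9. The 10 cells with the most S100a9 held 93.6% of the S100a9 UMIs of cluster 5, and the corresponding shares were 90.4% for S100a8, 99.5% for Camp and 99.8% for Ngp. For Mpo and Prtn3 they were 19.8% and 14.4%, and 201 and 342 cells held 90% of their UMIs. Elane lay between, with 66.3% of its UMIs in 10 cells and 90% in 29 cells, and Ms4a3 had 49.3% and 37 cells. Ctsg, although an early gene, was as concentrated as the late ones (97.0% in 10 cells, 90% in 7 cells). When the 24 cells with at least 5 S100a9 UMIs were left out, the S100a9 level of cluster 5 was 0.00965 UMIs per 10,000 (0.00733 to 0.0125), within the range of the other clusters. Without the 350 cells with at least 5 Mpo UMIs, the Mpo level was still 0.130, above every other cluster. Such cells were left out of cluster 5 alone and by the gene itself, which lowers the level by design, so these 2 comparisons are not like for like.

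**Figure D2:**
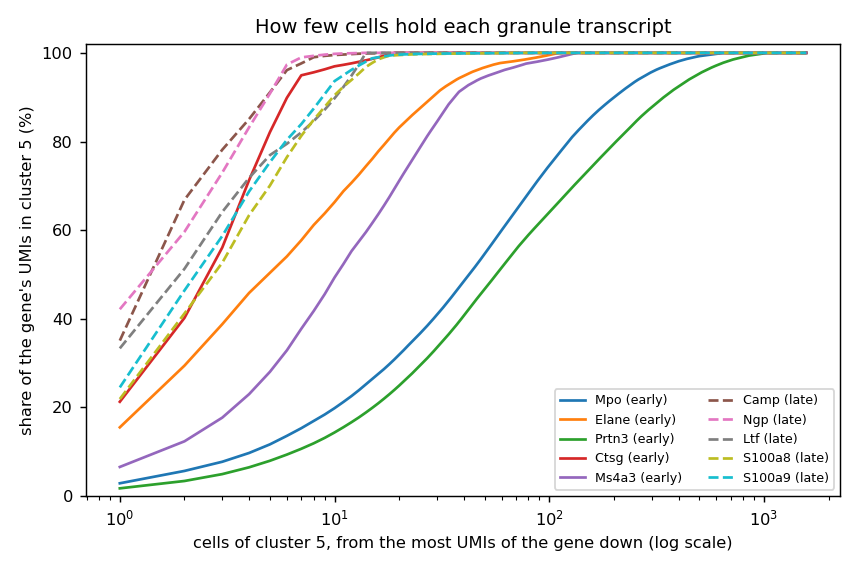
Share of each gene's UMIs in cluster 5 (%) held by the cells with the most UMIs of that gene, against the number of cells on a log axis. Solid lines are early genes and dashed lines late genes, and the dashed lines are near 100% within 25 cells (99.8% for S100a9), while Mpo is at 36.7% and Prtn3 at 29.5%.

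Co-detection was measured at a common depth of 5,000 UMIs per cell, with a cell called early (or late) when at least 2 of the 5 genes had a UMI. Of the 1,568 cells of cluster 5 that are this deep, 271 were early only (17.3%, 15.4 to 19.2%), 21 were early and late (1.34%, 0.831 to 2.04%), 3 were late only (0.191%, 0.0395 to 0.558%) and 1,273 were neither (81.2%). The early-only share was 19.6%, 15.0% and 17.5% in the libraries, and the 21 cells with both sets came as 12, 6 and 3. By this rule of at least 2 genes, 7.19% of the early cells were also late (4.51 to 10.8%), against 0.235% of the cells that were not early (0.0485 to 0.686%). Read the other way, 21 of 24 late cells were early (87.5%, 67.6 to 97.3%), against 17.6% of the cells that were not late (15.7 to 19.5%). The 2 sets thus overlapped in the same cells, and in library suffix 1 all 12 late cells were early. Of the 3 late-only cells, 2 carried suffix 2 and were shallow (median 6,754.5 UMIs). The late-only cell of suffix 3 was deep, with 60,217 UMIs. It held 170 UMIs of S100a8, 32 of S100a9, 77 of the macrophage gene C1qb and 60 of the endothelial gene Cdh5.

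Outside cluster 5 both sets were scarce at this depth. Early-only cells made up 0% to 1.26% of the other clusters (3 of 239 cells in cluster 3), and cells with both sets were 2 of 309 in cluster 6 and 1 of 5,377 in cluster 2. Cluster 2 had 11 late-only cells (0.205%), of which 10 carried suffix 2, at a median depth of 6,371 UMIs. The interval of this share (0.102 to 0.366%) holds the 0.191% of cluster 5.

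**Figure D3:**
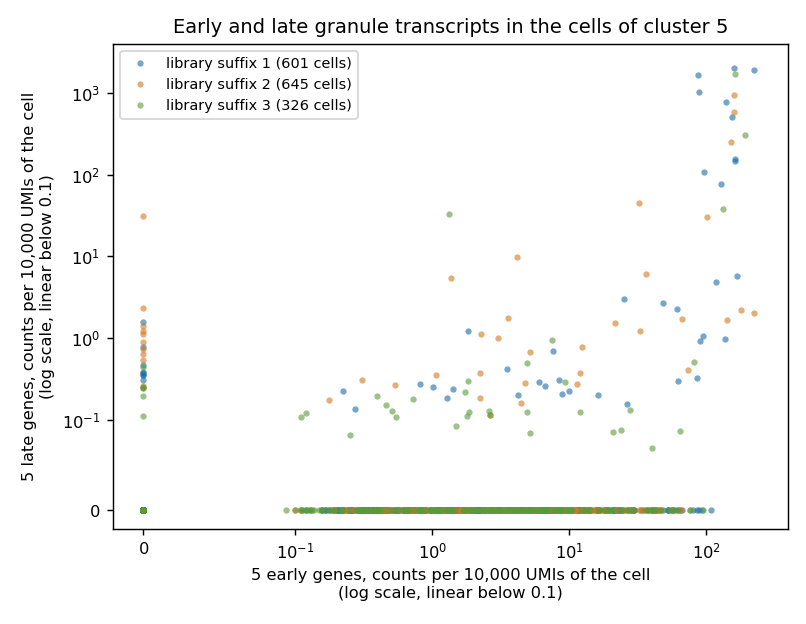
Each point is a cell of cluster 5, with the counts of the 5 early genes per 10,000 UMIs of the cell on the horizontal axis and those of the 5 late genes on the vertical axis (log axes, linear below 0.1), coloured by library. The cells with the highest late counts also have high early counts in all 3 libraries, and most cells lie on the line without late counts.

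At a stricter count of at least 5 UMIs of a gene in a cell as deposited, many but not all pairs of members were nested. All 48 cells with Ms4a3 had Mpo, and all 44 cells with Elane had Prtn3. Mpo was found with Prtn3 in 303 of 350 cells (86.6%, 82.5 to 89.96%), and Prtn3 with Mpo in 303 of 586 (51.7%, 47.6 to 55.8%). Elane in turn was present in 42 of the 350 Mpo cells. S100a9 cells had Elane in 19 of 24 cases (79.2%, 57.8 to 92.9%), while 19 of 44 Elane cells had S100a9 (43.2%, 28.3 to 59.0%). All 10 Camp cells and all 9 Ngp cells had S100a9, and Elane was present in 9 of 10 and 9 of 9 of them. All 7 Ctsg cells had Elane, and the 3 Ltf cells had Ngp. Other pairs did not nest. Ctsg cells had S100a9 in 5 of 7 cases, Ngp in 3 of 7 and Camp in 1 of 7, and Camp was present in 6 of 9 Ngp cells and 1 of 3 Ltf cells. Elane cells had Ms4a3 in 34 of 44 cases (77.3%).

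The cells were grouped in steps by some of these genes, which were chosen after these values had been seen. No member with at least 5 UMIs among those used was found in 938 cells. Mpo or Prtn3 without Elane and without late genes gave 583 cells, and Elane without late genes 23 cells. S100a8 or S100a9 with Elane but without Camp and Ngp gave 9 cells, and Camp or Ngp with both gave 12 cells (8, 3 and 1 in the libraries). Outside these steps were 6 cells with S100a8 or S100a9 but without Elane, and 1 cell with Camp and S100a9 whose 4 Elane UMIs fell short of 5. The median depth was 26,720.5 UMIs in the first group, 48,292 in the second, 57,817 and 56,912 in the next and 36,954 in the last. Depth therefore differed between the groups, and its part in the grouping was not tested.

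Elane and Prtn3 were higher in the cells with Camp or Ngp than in the step before in all 3 libraries, while for the other early genes the libraries differed in direction. Suffix 3 had a single cell in the last step. Elane was uneven in that step, with 350, 314 and 159 UMIs in 3 cells and 6 to 78 in each of the others. Whether the Elane difference holds without these 3 cells was not tested. From the Mpo or Prtn3 step to the last step, the Prtn3 level was 5.82, 38.9, 59.8 and 67.9 UMIs per 10,000, and the Mpo level was 3.86, 26.7, 44.2 and 34.2. The lower Mpo level of the last step rested on the single cell of suffix 3 (17.7 against 66.5 in the step before), since suffix 1 had 34.8 against 32.1 and suffix 2 48.0 against 37.6. Without suffix 3 the Mpo level was 37.0 against 33.9. Elane had 0.0294, 3.36, 11.3 and 25.9 over these steps, Ms4a3 0.122, 4.61, 12.5 and 14.1, and Ctsg 0.00167, 0.382, 2.14 and 2.84. The higher Ctsg level of the last step rested on the same cell, which held 56 of its 127 UMIs, and without suffix 3 it was 1.87 against 3.13. For Ms4a3 the counting intervals of the last 2 steps overlapped, and suffix 2 had 12.4 against 15.0. The rule fixed part of these values, since Elane, S100a8 and S100a9, Camp and Ngp define the steps. S100a9 went from 19.5 in the step that it defines to 481 in the Camp or Ngp step, and S100a8 from 41.4 to 421.

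**Figure D4:**
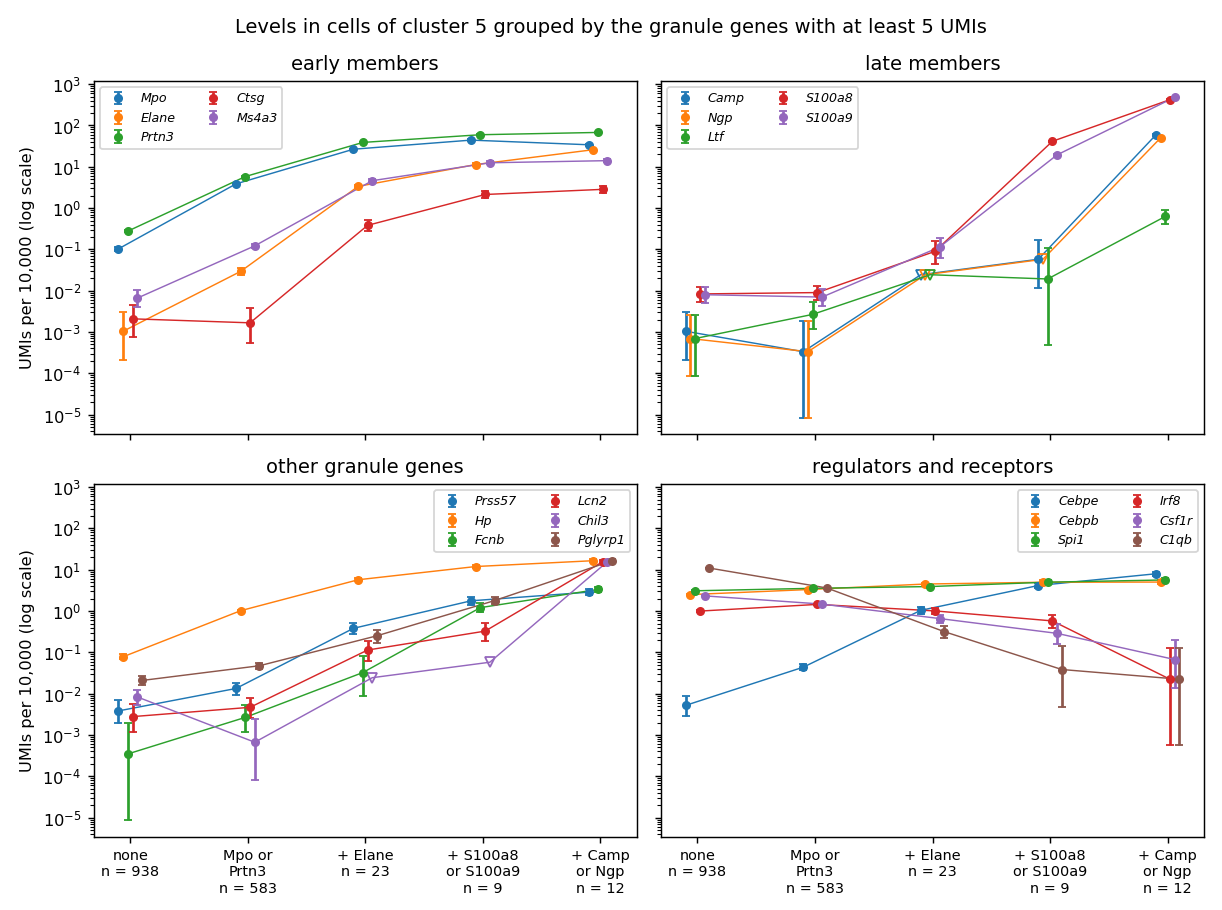
Levels in UMIs per 10,000 (log axis, points with 95% counting intervals, open triangles for 0 UMIs drawn at 3 UMIs) in cells of cluster 5 grouped by the granule genes that have at least 5 UMIs, from 938 cells with none to 12 cells with Camp or Ngp. The early members stay high in the last group (Prtn3 at 67.9), Cebpe goes from 0.00522 to 7.995, and Irf8 and Csf1r are lowest there. C1qb has fewer than 3 UMIs in that group and in the one before, so its levels there cannot be ranked.

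In all, 28 cells of cluster 5 had at least 5 UMIs of a late member (16, 7 and 5 in the libraries). Of these, 25 had at least 5 UMIs of Mpo, 26 of Prtn3, 21 of Elane and 21 of Ms4a3. The cell with the most S100a9 had 5,599 UMIs of it among 66,040, beside 4,665 of S100a8, 941 of Ngp, 458 of Prtn3, 314 of Elane and 117 of Mpo. The 10 members together took 18.6% of its UMIs, and up to 21.9% in the other cells. At the other end, 1 cell had no early UMI, with 15 UMIs of S100a9 and 5 of S100a8 among 6,317. Cells of suffix 3 with 77 and 112 UMIs of C1qb and no Mpo were also among the 28.

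Among the 12 cells with Camp or Ngp, the specific granule genes did not go in step. The 3 cells with at least 5 UMIs of Ctsg had 56, 45 and 23 of them, with 2, 3 and 37 UMIs of Camp, 941, 228 and 390 of Ngp, and 13, 7 and 5 of Ltf. The same 3 cells had the most UMIs of Chil3, a chitinase-like gene of neutrophil precursors and macrophages (396, 242 and 37). The 2 cells richest in Camp had 928 and 840 UMIs of it with 298 and 146 of Ngp, no UMI of Ctsg or Ltf, and 12 and 0 of Chil3. The first group held cells of suffix 1 and 3 and the second cells of suffix 1 alone. Both groups were picked after their values had been seen.

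On the scale of ln(1 + counts per 10,000), correlations were taken over the 1,572 cells of cluster 5. S100a8 and S100a9 had the highest Pearson r (0.96, 0.90 to 0.98 in the libraries), followed by Elane and Ms4a3 (0.79), Ngp and S100a9 (0.78) and Ngp and S100a8 (0.78). Elane was nearer to S100a8 (0.75) and S100a9 (0.74) than to its own set members Prtn3 (0.52) and Mpo (0.51). Mpo and Prtn3 had 0.73 with each other and 0.33 to 0.36 with S100a8 and S100a9. Cells share libraries and differ in depth, and most are at 0 for the late genes, so these values are a description. Among 1,613 genes with at least 1 UMI per 10,000 in cluster 5, those most like the summed early members were Plac8 (r = 0.62), Srgn (0.52), Stfa1 (0.48), Ap3s1 (0.48) and Emb (0.46). Those most like the summed late members were Stfa1 (0.69), Gsr (0.36), Dstn (0.33), Ap3s1 (0.33) and Srgn (0.31).

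Early-only cells could not be compared with the 3 late-only cells, of which library suffix 1 had none. In a comparison chosen after this was seen, the 21 cells with both sets were compared with the 271 early-only cells over 1,763 genes with at least 1 UMI per 10,000 in either group. Genes were called at a 4-fold difference with the same direction in every library. The members themselves are left out of the counts, since they set the groups. In the cells with both sets, 54 genes were higher (3.06% of those compared) and 8 were lower (0.454%), and the median log2 ratio over all genes compared was -0.20. All 8 lower genes reached the minimum level only in early-only cells. At a minimum level of 0.1, with 7,917 genes compared, more genes were lower than higher. The balance of the directions thus depended on this filter.

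Genes of the specific and gelatinase granules were higher in the cells with both sets in 5 of 8 that were compared, of 12 on the list. Of these, Lcn2, Fcnb, Olfm4 and Pglyrp1 reached the minimum level only in the cells with both sets. The filter thus fixed part of this count, which is a description and no support for a granule programme. Lcn2, the gene of neutrophil gelatinase-associated lipocalin, had 8.32 against 0.0243 UMIs per 10,000, a log2 ratio of 8.42 (7.90 to 8.99), and was 9.80, 4.20 and 7.84 in the libraries. Fcnb, a ficolin gene, had a log2 ratio of 7.19, Olfm4 of 6.94, Pglyrp1, which codes for a peptidoglycan recognition protein, of 6.77, and Hp, the haptoglobin gene, of 2.96. Chil3 had 8.19 against 0.000782 UMIs per 10,000 but no UMI in either group of library suffix 2, and so it was not called. Cyba and Cybb, the 2 genes of the oxidase cytochrome, had log2 ratios of 1.38 and 1.65 and were not called. Mmp8, Mmp9, Cd177 and Itgam were under the minimum level. In the Camp or Ngp step Mmp8 had no UMI and Mmp9 1 UMI, which stood for 0.0224 per 10,000.

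Azurophil granule and protease genes outside the 5 members were higher in 4 of 8, of which Prss57 and Nkg7 reached the minimum level only in the cells with both sets. Prss57, a serine protease gene of azurophil granules, had 2.69 against 0.0681 UMIs per 10,000 (log2 ratio 5.30, 4.94 to 5.68), Nkg7 had a log2 ratio of 2.70, Serpinb1a, which codes for an inhibitor of neutrophil serine proteases, of 2.68, and Lyz2 of 2.27. Srgn, which codes for the proteoglycan core that holds granule contents, had 1.92 and Cd63 1.54, both under the 4-fold limit. Ctsc, which codes for the enzyme that activates elastase and its relatives, went the other way with -1.45 (1.49 against 4.08 UMIs per 10,000) and was lower in each library.

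Regulators of granulocytes and monocytes differed in opposite directions. Cebpe, the factor of the late granule genes, had 6.37 UMIs per 10,000 in the cells with both sets and 0.243 in early-only cells, a log2 ratio of 4.71 (4.51 to 4.92), with 7.83, 3.38 and 5.24 in the libraries. Irf8, which directs cells to the monocyte line, had 0.0704 against 1.22, a log2 ratio of -4.12 (-5.57 to -2.99). Cebpe reached the minimum level only in the cells with both sets, and Irf8 only in early-only cells. The filter thus fixed part of both calls, which are a description. Spi1 (0.52), Cebpb (0.51), Myb (0.32) and Runx1 (-0.81) were not called, so that 1 of the 6 factors compared was higher and 1 lower. Cebpd was not analysed here. Along the steps, Cebpe went from 0.00522 in cells without granule genes through 0.0438, 1.04 and 4.16 to 7.995 in the Camp or Ngp step, and was seen in all 12 cells of that step. Irf8 had 0.999, 1.45, 1.01, 0.578 and 0.0224 UMIs per 10,000 over the same steps.

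The genes with the largest ratios included a family of cystatin-like genes. Gm5483, BC100530, Stfa3 and Stfa2l1 were among the first 5, with 28.9, 68.0, 5.19 and 3.87 UMIs per 10,000 in the cells with both sets. Near-identical copies of these stefin A genes can share reads, so the split between them is uncertain. Stfa2l1 had no UMI in early-only cells so its log2 ratio is at least 10.69, with 3 UMIs over the group taken as the limit. Wfdc21 (log2 ratio 9.82) and Ly6c2 (7.80) were also among the first 10, beside Lcn2, Fcnb, Olfm4 and Pglyrp1. The 8 lower genes were Lpl (-5.12), Irf8, Adgrg1 (-3.62), Ckb (-3.54), Hmga2 (-3.11), Dnmt3b (-2.64), Dusp1 (-2.50) and Mef2c (-2.16).

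Genes of mature neutrophils were nearly lacking. Of the 10 on the list, Stfa2l1 was the one that reached the minimum level. In the Camp or Ngp step, Ly6g had 1 UMI in the 12 cells, Retnlg, Fpr1 and Fpr2 had none, and Cxcr2 stood at 0.246 UMIs per 10,000 against 0.342 in the Elane step. Genes of the cell cycle were present throughout, with Mki67 at 3.30, 2.73, 2.49, 3.12 and 3.83 UMIs per 10,000 along the steps, and 0 of the 9 proliferation genes compared were called between cells with both sets and early-only cells.

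Markers of other cells were counted in the same comparison. Of 10 macrophage genes none reached the minimum level, with a sum of 0.551 UMIs per 10,000 in the cells with both sets and 3.27 in early-only cells. The 6 endothelial genes summed to 1.75 and 3.70, and Cdh5 was found with 0 to 6 UMIs per cell in the 12 cells of the last step, 9 UMIs in all. Monocyte genes summed to 3.31 and 1.21. Ly6c2 alone had 2.97 and 0.0133, so the sum of the other monocyte genes was lower in the cells with both sets. Platelet (0.188 and 0.509), erythroid (0.0235 and 0.311), mast cell and basophil (0.317 and 0.990) and stromal genes (0.0117 and 0.0149) were low in both. Lymphoid genes had 1.37 and 0.214, of which Nkg7, on this list and the azurophil one, made up nearly all. Eosinophil genes summed to 5.23 and 1.47, and Prg2, the major basic protein gene, was 5.61 in suffix 1 but 0.0689 and 0.0433 in the others. The cell with Camp and short of Elane had 260 Prg2 UMIs (78.5 per 10,000). Their part in the granule values was not tested.

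The 271 early-only cells were also compared with the 1,273 cells with neither set. Cells with neither set are not free of early transcripts, since a cell with a UMI of 1 early gene falls among them. The 5 early genes summed to 1.88 UMIs per 10,000 there and to 25.3 in early-only cells. Of 1,725 genes compared, 3 were higher (0.174%) and 24 lower (1.39%). The 3 higher were Stfa1 (log2 ratio 3.28), Hp (2.67, 2.04 against 0.321 UMIs per 10,000) and Serpinb1a (2.56). Macrophage genes were lower in 5 of 6 compared, among them Mrc1, the mannose receptor gene (-5.03), C1qa (-4.75), C1qc (-3.59) and C1qb (0.836 against 8.76 UMIs per 10,000, -3.39). The 3 higher genes reached the minimum level only in early-only cells, and these named macrophage genes only in cells with neither set. The filter thus fixed part of these counts, which are a description. Cebpe was under the minimum level, and none of the 5 transcription factors compared was called, Irf8 standing at 1.22 and 1.23. Of the specific granule genes 2 of 12 reached the minimum level, Hp and Cyba (-0.21).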

How the data were processed

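The authors pooled cells of all time points, made 3 libraries with 10x 3′ version 3 chemistry and aggregated them with Cell Ranger. The submitters' processing notes list Cell Ranger 3.1.0, Seurat 3.1.5 and mm10. The deposited table of UMI counts holds 27,998 rows and 9,562 cells, of which 90 have fewer than the 5,000 UMIs the study states, and the clusters are those the authors deposited with their numbers. A second deposited table holds natural log values, which equalled ln(1 + counts per 10,000) within 5.3e-15 for the 114 list genes compared. Barcode suffixes 1 to 3 name libraries whose pools are unknown, so the matrix was treated as 1 sample, with no test.

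Rows were named from GENCODE M21, which gave 27,722 of them a symbol and left 276 as identifiers, and rows of equal symbol were summed. Levels were summed UMIs per 10,000. Intervals (95%) were exact Poisson, Clopper-Pearson or, for ratios, conditional binomial, and cover counting error only, as does the floor of 3 UMIs. Cells were thinned to 5,000 UMIs for shares. Ratios were called at 4-fold with 1 direction in all 3 libraries. On simulated counts 200 of 200 changed genes were called in each comparison. These held 1,664 genes for early and late over early only and 1,646 for early only over neither. The changes put in were all larger than the 4-fold limit, with counting error alone and otherwise the same profile for all cells. Such changes were thus nearly bound to be called. Whether the calls made in the deposited cells are right was not tested. Per the study's methods the deposited profiles were already limited to singlets. Scrublet marked 8 cells (0.0837%), which were kept. Named genes were the 10 members, the lists fixed with them and the up to 10 called genes with the largest ratio each way. The genes most like each set were the 5 with the highest correlation. The members and lists were chosen with earlier results of these data known. Intervals came from scipy 1.17.1 and figures from matplotlib 3.10.9, with tables handled in pandas 2.3.3 under Python 3.11.15 and Scrublet run through scanpy 1.11.5. The mouse line is not reported here.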

Additional observations from a re-analysis of the deposited data

How the results depend on the processing

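No paired analysis was possible because the samples have 1 group and the cells carry no pool, and no result has a test. The early level of cluster 5 (8.78 UMIs per 10,000) was 7.41 as a mean over cells or from the normalized table, 6.62 without late cells and 8.27 to 9.46 without each library in turn, and the late level (8.03) was 7.94, 0.0229 and 4.94 to 9.69. The early-only share (17.3%) was 44.8% with at least 1 gene, 3.95% with 3, 26.2% at 10,000 UMIs, 37.0% without thinning and 15.9 to 18.9% without a library. The neither share (81.2%) was 52.0%, 95.3%, 72.1%, 61.1% and 79.4 to 82.9%. The share with both sets (1.34%) was 2.68% with 1 gene, 0.765% with 3, 0.383% with Camp, Ngp and Ltf alone and 0.928 to 1.63% without a library, and the late-only share (0.191%) was 0% with 3 genes and 0% with Camp, Ngp and Ltf, and 0.108 to 0.309%. The 54 genes higher in cells with both sets were 169 at a minimum level of 0.1 and 49 to 58 without a library, and 31 of the 54 were also called with at least 3 genes of each set. The 8 lower genes were 29 with 3 genes, 200 at the lower minimum and 10 to 13 without a library. At the lower minimum the lower genes thus outnumbered the 169 higher ones. Of 630 alternative values of members by cluster, 448 lay within the counting interval of the value reported. Some of these could not move, since a member with 0 UMIs in a cluster stayed at 0 throughout. Leaving out the cells marked by Scrublet left all 70 values within the interval. Without library suffix 3, the log2 ratio of the Camp or Ngp step over the step before turned from -0.37 to 0.13 for Mpo (-0.75 to 0.13 without each library in turn) and from 0.41 to -0.75 for Ctsg (-0.75 to 1.40), and for Elane, Prtn3 and Ms4a3 it kept its sign without each library. The gene comparison with Camp, Ngp and Ltf alone was not run, since library suffix 2 had 0 such cells. Settings chosen after seeing the data are the step rule, the 2 gene comparisons and the run without late cells. The causes of these shifts were not tested. With 1 sample, the intervals leave out differences between mice.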

Other observations

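Embryonic globin genes were among those lower in early-only cells than in cells with neither set. Hbb-y had 0.0469 against 14.2 UMIs per 10,000, Hba-x 0.0180 against 7.50 and Hbb-bh1 0.0133 against 3.05, and the adult gene Hba-a1 had 0.00939 against 2.004. These genes were not members of a granule list, and no explanation was tested. All of them reached the minimum level only in cells with neither set.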
